A study of Mus musculus with 9 samples.

Results

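Mitochondrial ATP production was examined here through the nuclear genes for subunits of oxidative phosphorylation in mouse cells of a study of NOTCH1-driven T cell leukemia (T-ALL). The members are the genes whose probe sets carry exactly 1 annotated symbol beginning with Ndufa, Ndufb, Ndufc, Ndufs or Ndufv (without the Ndufaf assembly factors), Uqcr, Atp5 or Cox4 to Cox8, together with Sdha to Sdhd, Cyc1 and Cycs. This gave 174 probe sets for 84 genes of 18193 genes on the array. The genes fall into complex I (34, of which 6 are core and 28 accessory subunits), complex II (4), complex III (9), complex IV (17), complex V (17) and cytochrome c (1). The prefixes also take in 2 genes that are not standing subunits of a complex: Cox7a2l, which encodes a factor that assembles supercomplexes, and Ndufa4l2, a paralog of Ndufa4. The brightest probe set of a gene, by its mean over 9 arrays, stands for that gene. Genes whose brightest probe set exceeded the array's 40th percentile on 3 or more arrays were tested, which left 82 of the 84 members and 13296 genes in all. Ndufb4 and Cox7b2 did not pass.

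The study profiled RNA of sorted mouse cells on Affymetrix arrays, 1 array per sample. The groups are NIC tumor (3 arrays), abnormal non-malignant (3) and control (3); the series title sets them in the context of NOTCH1 overexpression. The labels give no strain, age, allele, construct or sorted population, do not spell out NIC, and do not tell if the samples are separate animals, so a p-value here measures just the spread of these samples, which may be technical. Values are log2 signals as deposited, and differences are in log2 units, the group named first minus the group named second. Called genes are those with an adjusted p under 0.05 (Benjamini-Hochberg, across 13296 genes) in limma's moderated, two-sided test, fitted to all 9 arrays.

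Oxidative phosphorylation couples the oxidation of NADH and succinate to ATP synthesis in the inner mitochondrial membrane. Complexes I and II pass electrons to ubiquinone, complex III passes them on to cytochrome c, and complex IV gives them to oxygen. The protons pumped by complexes I, III and IV drive complex V, the ATP synthase. Most subunits are encoded in the nucleus, and the rest in mitochondrial DNA; the members here are all nuclear. Developing T cells and leukemic T cells use this pathway beside glycolysis, and Notch and Myc are known to act on mitochondrial genes in T lineage cells.

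Promoter sequences are shown for the c-subunit genes of complex V, because the largest rise of the set lay among them and the 3 genes encode the same mature protein, and for Atp5l, Uqcr11 and Ndufa4, which with Atp5g1 and Atp5g2 are all the members called in 2 of the 3 comparisons. They come from RefSeq on build GRCm38.p6, 300 bases each, 250 before and 50 after the gene's start, written 5′ to 3′ on the strand of the gene, which is the minus strand for all 6. Capitals mark matches, on either strand, to the letters GCGCATGC (NRF1 core), CCGGAAG (GABP), CAAGGTCA (ERR), AAGATGGC (YY1), GGGCGGG (SP1) and CACGTG (E box). The 6 windows lie at chr11:96075582-96075881, chr15:102670998-102671297, chr2:73911277-73911576, chr9:44920693-44920992, chr10:80406772-80407071 and chr6:11907401-11907700.
Atp5g1: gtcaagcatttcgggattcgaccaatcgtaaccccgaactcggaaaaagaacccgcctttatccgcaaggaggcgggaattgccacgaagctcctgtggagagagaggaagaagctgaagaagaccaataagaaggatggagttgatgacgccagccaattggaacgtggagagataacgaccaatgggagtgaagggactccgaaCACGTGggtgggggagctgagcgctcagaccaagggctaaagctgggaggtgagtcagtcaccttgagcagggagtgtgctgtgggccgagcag
Atp5g2: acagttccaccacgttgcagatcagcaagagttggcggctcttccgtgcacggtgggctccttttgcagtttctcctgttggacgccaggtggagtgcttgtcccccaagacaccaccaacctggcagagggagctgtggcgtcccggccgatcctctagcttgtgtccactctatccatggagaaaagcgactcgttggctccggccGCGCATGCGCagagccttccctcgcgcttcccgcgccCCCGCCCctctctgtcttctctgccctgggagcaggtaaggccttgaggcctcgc
Atp5g3: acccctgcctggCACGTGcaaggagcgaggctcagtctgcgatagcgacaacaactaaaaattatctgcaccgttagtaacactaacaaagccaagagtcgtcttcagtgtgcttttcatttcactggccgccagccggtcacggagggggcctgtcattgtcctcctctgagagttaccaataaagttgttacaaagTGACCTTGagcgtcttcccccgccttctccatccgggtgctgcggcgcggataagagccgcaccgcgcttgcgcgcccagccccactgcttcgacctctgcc
Atp5l: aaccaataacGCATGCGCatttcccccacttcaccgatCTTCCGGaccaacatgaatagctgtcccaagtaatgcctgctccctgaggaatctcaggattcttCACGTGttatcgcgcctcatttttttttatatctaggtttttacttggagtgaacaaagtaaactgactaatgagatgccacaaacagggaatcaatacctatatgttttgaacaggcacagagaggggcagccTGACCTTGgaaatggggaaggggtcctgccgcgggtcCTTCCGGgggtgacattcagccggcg
Uqcr11: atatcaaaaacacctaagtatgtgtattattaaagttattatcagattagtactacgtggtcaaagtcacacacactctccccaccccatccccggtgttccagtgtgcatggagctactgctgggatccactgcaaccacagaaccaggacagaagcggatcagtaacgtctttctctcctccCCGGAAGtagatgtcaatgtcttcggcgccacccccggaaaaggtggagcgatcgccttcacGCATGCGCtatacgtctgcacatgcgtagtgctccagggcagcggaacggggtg
Ndufa4: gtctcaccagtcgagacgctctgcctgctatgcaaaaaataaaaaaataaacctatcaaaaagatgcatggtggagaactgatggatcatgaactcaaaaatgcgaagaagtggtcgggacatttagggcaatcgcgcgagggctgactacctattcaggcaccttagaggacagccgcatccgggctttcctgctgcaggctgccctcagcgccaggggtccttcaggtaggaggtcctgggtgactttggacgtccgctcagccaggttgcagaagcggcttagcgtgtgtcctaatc
The Atp5g1 window held only an E box. The Atp5g2 window held 2 overlapping matches to the NRF1 core and 1 to the SP1 letters, and the Atp5g3 window an E box and a match to the ERR letters. Atp5l held matches to 4 of the 6 motifs and Uqcr11 to NRF1 core and GABP. The Ndufa4 window held a match to 0 of the 6. Windows were given for 68 of the 84 members. The NRF1 core letters stood in 10 of these 68 (14.7%), against 3.05% of all 27025 genes with a window. The GABP letters stood in 17 (25%, against 9.93% of all genes), the YY1 letters in 9 (13.2%, against 3.19%) and the ERR letters in 4 (5.88%, against 1.76%). SP1 letters were found in 35.3% of members against 27.9% of all genes, and E boxes in 8.82% against 8.09%. All genes here include many noncoding and predicted genes. A match is a run of letters in the window and not a measured binding site.

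A few properties of the arrays bear on the values below. Abnormal non-malignant arrays 2 and 3 were closer to each other (SD of their differences over members 0.10) than any other pair, the next closest being control arrays 1 and 3 (0.19), so counts are also given with arrays 2 and 3 averaged and counted as 1. Tumor array 1 lay closer to the abnormal non-malignant arrays (SD over members 0.22 to 0.30) than to tumor arrays 2 and 3 (0.38 and 0.43). The root mean square SD of a member within a group was 0.29 in tumors, 0.16 in abnormal non-malignant samples and 0.18 in controls. All 9 measured T lineage markers lay above the 40th percentile on all 9 arrays, among them the CD3 chains Cd3e (11.76 to 11.99 in tumors, 12.13 to 12.36 in abnormal non-malignant samples, 11.97 to 12.16 in controls), Cd3d and Cd3g.

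In NIC tumors, 22 of the 82 tested members were higher than in controls and 0 were lower by the call. Over all genes, 8.48% were called higher and 7.19% called lower. The called members came from every complex: 3 of 6 core and 5 of 27 tested accessory subunits of complex I, 2 of 4 of complex II, 4 of 9 of complex III, 4 of 16 tested of complex IV and 4 of 17 of complex V. The changes were small, with a median log2 fold change of 0.31 over the 82 members against 0.06 over all genes tested. Only Atp5g1, Ndufa10 and Uqcr11 reached 2-fold, and Cox7c lay more than 2-fold lower without a call. At an unadjusted p under 0.05, 39 members were higher and 1 lower (17.4% and 14.8% of all genes). For 46 members all 3 tumor arrays lay above all 3 controls (18.2% of all genes did), and for 2, Atp5h and Cox7a2, all 3 lay below (14.3% of all genes). In bulk RNA of this kind, fewer cells of a type and less RNA per cell cannot be told apart.

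**Figure D1:**
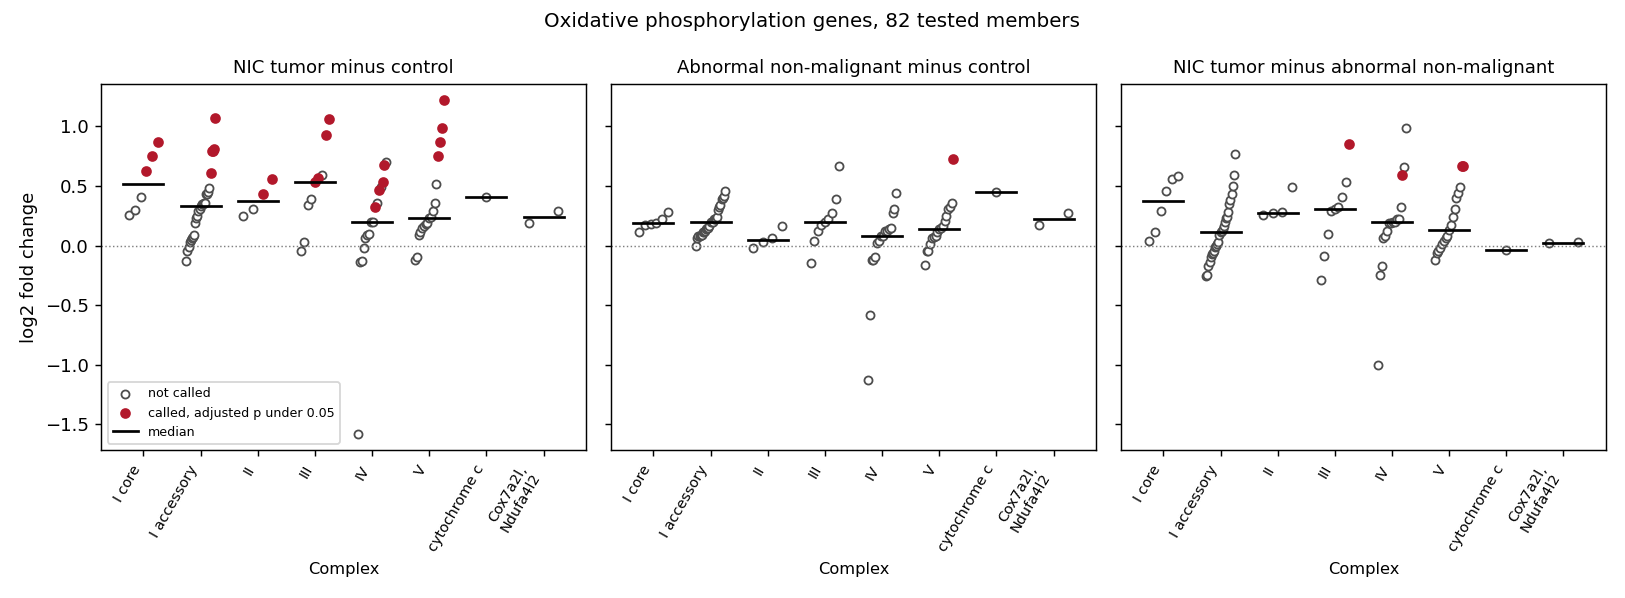
Log2 fold change of each of the 82 tested members (y axis) by complex (x axis) in the 3 comparisons. Each point is a gene, filled where called, and the line is the median; the medians for tumors minus controls run from 0.20 in complex IV to 0.53 in complex III, and the filled points number 22, 1 and 4 in the 3 panels.

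The count rests on few arrays. Leaving out any 1 array gave 7 to 26 called members, with 7 without control 2, 8 without tumor 2, 10 without control 1 or control 3, and 13 without abnormal non-malignant array 2 or 3. The number called over all genes moved as well, from 2083 with all 9 arrays to 926 without control 2 and 4121 without tumor 1. The 26 members were called in that fit without tumor 1. These counts join both directions: 1 of the calls was lower without tumor 1 (Cox7c, −2.34) and without tumor 2 (Cox6b2, −0.76). With abnormal non-malignant arrays 2 and 3 averaged, 13 members remained called, and 1472 of all genes. Atp5g1, Atp5g2, Atp5l, Ndufa4, Ndufa10 and Uqcr11 were called in all 9 fits with 1 array left out, Ndufab1 and Uqcrq in 8 of 9, and 7 of the 22 in only 1 or 2 of 9.

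In abnormal non-malignant samples, 1 member, Atp5g1, was higher than in controls by the call and 0 were lower. Over all genes, 2.87% were called higher and 0.654% lower. The median of the members was 0.15, against 0.01 over all genes tested, and 72 of 82 lay above 0. At an unadjusted p under 0.05, 10 members were higher and 1 lower, against 9.36% and 3.92% of all genes, so these counts are near the background. All 3 abnormal non-malignant arrays lay above all 3 controls for 25 members (17% of all genes) and below them for 2, Cox6b2 and Uqcrh (9.15% of all genes). The call of Atp5g1 was lost with arrays 2 and 3 averaged (0 members called, 4 with an unadjusted p under 0.05 in limma), and without any 1 of the control or abnormal non-malignant arrays. With arrays 2 and 3 averaged, 208 of all genes were called.

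Between NIC tumors and abnormal non-malignant samples, Atp5g2, Atp5l, Ndufa4 and Uqcr11 were called higher in tumors and 0 members lower. Over all genes, 1.53% were called higher and 2.7% lower. The median of the members was 0.18 against 0.03 over all genes. Tumor arrays lay above all abnormal non-malignant arrays for 29 members (12.3% of all genes) and below them for 4, namely Atp5h, Cox7a2, Ndufa13 and Ndufb11 (14.8% of all genes). With abnormal non-malignant arrays 2 and 3 averaged, 0 members were called (14 with an unadjusted p under 0.05 in limma), and 55 of all genes. Leaving out 1 array gave 0 to 12 called members and 53 to 3400 called genes over all. Both the 12 and the 3400 came from the fit without tumor 1. Atp5g2, Atp5l and Ndufa4 kept the call in 2 of those 9 fits and Uqcr11 in 1. The 3 comparisons share arrays pairwise and are not independent of each other.

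Each array's own median shows how the shift was spread over the samples. The median over the 82 members of the value minus the control mean was 0.29, 0.38 and 0.30 on tumor arrays 1 to 3, and 0.25, 0.15 and 0.11 on abnormal non-malignant arrays 1 to 3. The controls, which lie near 0 by construction, had 0.01, −0.04 and 0.05. The same median over all 13296 genes lay between −0.02 and 0.09 on every array. The tumor arrays were above all other arrays in this measure, with tumor 1 close to abnormal non-malignant array 1.

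**Figure D2:**
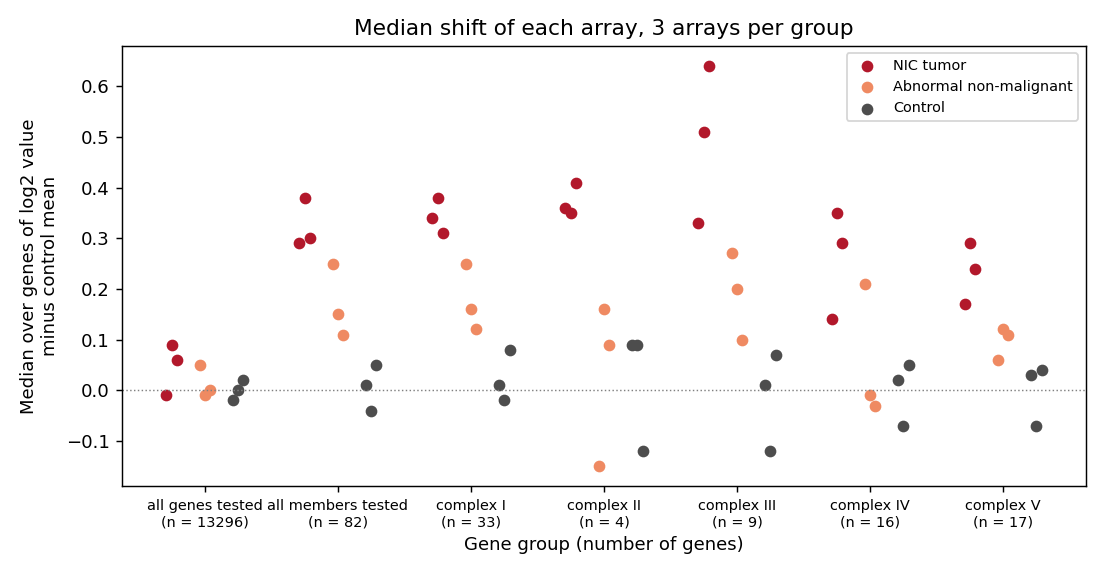
Median over genes of the log2 value minus the control mean (y axis) for all genes, all members and each complex (x axis), with 1 point per array and 3 arrays per group. Tumor arrays lie above every control array for each complex, and abnormal non-malignant arrays do so for complexes I, III and V but not for complexes II and IV.

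Complex I is the entry point for electrons from NADH. Its core subunits carry the flavin and the iron-sulfur clusters and are conserved from bacteria. Of the 6 core genes measured, Ndufs7, Ndufv1 and Ndufv2 rose in tumors against controls, and the median of the 6 was 0.52. Ndufs7, an iron-sulfur subunit near the ubiquinone site, had 9.80, 10.62 and 10.18 on the tumor arrays, 9.78, 9.56 and 9.50 on the abnormal non-malignant arrays and 9.26, 9.46 and 9.27 on the controls. Tumor 1 stood next to abnormal non-malignant array 1, and the groups did not overlap. The difference from controls was 0.87 ± 0.21 (SE, adjusted p = 0.0243). Ndufv2, a subunit of the NADH-oxidizing arm, had 11.63, 11.75 and 11.47 in tumors, 11.18, 11.12 and 11.16 in abnormal non-malignant samples and 11.16, 10.95 and 10.85 in controls. It rose by 0.63 ± 0.13 (adjusted p = 0.0147), with all tumors above the other 6 arrays. Ndufv1, which binds NADH and the flavin, averaged 10.49 ± 0.15 in tumors and 9.74 ± 0.30 in controls (SD, n = 3 each) and rose by 0.75 (adjusted p = 0.0326). With 1 array left out, the call of Ndufs7 was lost without any 1 control or tumor 2, that of Ndufv2 without control 2, control 3 or tumor 2, and that of Ndufv1 in 7 of 9 fits. Ndufs1, Ndufs3 and Ndufs8, 3 further iron-sulfur or core subunits, had differences of 0.30, 0.41 and 0.26 and were not called.

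Accessory subunits of complex I surround the core and are needed for its assembly or stability. Of the 27 tested, Ndufa10, Ndufa12, Ndufab1, Ndufb9 and Ndufc1 rose in tumors against controls, and 15 had all tumors above all controls (18.2% of all genes). Ndufa10, a subunit on the matrix side, gave 10.58, 11.23 and 11.29 in tumors, 10.29, 10.28 and 10.22 in abnormal non-malignant samples and 9.77, 9.95 and 10.17 in controls. The groups did not overlap, with tumor 1 well under the other tumors. Its difference was 1.07 ± 0.21 between tumors and controls (SE, adjusted p = 0.0102) and 0.77 between tumors and abnormal non-malignant samples, where it was not called (adjusted p = 0.0651). Ndufab1, the mitochondrial acyl carrier protein, had 10.71, 10.96 and 11.14 in tumors, 10.36, 10.69 and 10.62 in abnormal non-malignant samples and 10.20, 9.95 and 10.26 in controls. It rose by 0.79 ± 0.17 in tumors against controls (adjusted p = 0.0149), without overlap between these groups. The tumor 1 array and the abnormal non-malignant array 2 nearly coincided (10.71 and 10.69). Ndufc1 and Ndufa12 rose by 0.79 and 0.81 (adjusted p = 0.0246 and 0.0383) and Ndufb9 by 0.61 (adjusted p = 0.0160). Ndufa10 kept its call whichever array was left out. Ndufab1 lost it without control 2, Ndufb9 without control 1, control 2 or tumor 2, Ndufc1 without control 2, control 3, tumor 2 or tumor 3, and Ndufa12 in 6 of 9 fits. The other accessory genes ran from −0.13 for Ndufb11 to 0.48 for Ndufb1.

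Against controls, the abnormal non-malignant samples had no called gene of complex I, although 33 of its 33 tested genes had a difference at or above 0, from 0.00 for Ndufb5 to 0.46 for Ndufa12. Without overlap, 15 of the 33 lay above controls (17% of all genes). Ndufb3, a small membrane subunit, had the smallest adjusted p of them: 10.55, 10.58 and 10.62 in abnormal non-malignant samples against 10.10, 10.19 and 10.26 in controls, a difference of 0.40 (adjusted p = 0.215). Its 3 tumor arrays, at 10.38, 10.28 and 10.60, overlapped with the abnormal non-malignant ones. The array medians of complex I were 0.34, 0.38 and 0.31 in tumors, 0.25, 0.16 and 0.12 in abnormal non-malignant samples and 0.01, −0.02 and 0.08 in controls.

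Complex II, succinate dehydrogenase, belongs both to the tricarboxylic acid cycle and to the electron transport chain and is the only complex with all subunits nuclear. Sdhb, the iron-sulfur subunit, had 11.42, 11.45 and 11.54 in tumors, 11.32, 11.22 and 11.09 in abnormal non-malignant samples and 11.01, 11.14 and 10.99 in controls. It rose by 0.43 ± 0.12 in tumors against controls (SE, adjusted p = 0.0424). Sdhd, a membrane anchor, had 11.19, 11.31 and 11.24 in tumors, 10.45, 10.96 and 10.85 in abnormal non-malignant samples and 10.75, 10.81 and 10.50 in controls, a rise of 0.56 ± 0.17 (adjusted p = 0.0483). Both genes had all tumors above the other 6 arrays, while abnormal non-malignant samples and controls overlapped. Sdha, the flavoprotein, and Sdhc, the other anchor, had differences of 0.31 and 0.25 between tumors and controls and were not called. The tumors lay above all abnormal non-malignant arrays for 4 of 4 genes (12.3% of all genes), by 0.26 to 0.49 without a call. Abnormal non-malignant arrays lay above all controls for 0 of 4 (17% of all genes). The median difference of abnormal non-malignant samples from controls over the 4 genes was 0.05. Both calls were held in 2 of 9 fits with 1 array left out, those without tumor 1 and without abnormal non-malignant array 1. Between tumors and controls, other probe sets above the 40th percentile on at least 3 arrays ran the other way for Sdha, Sdhc and Sdhd. They gave −0.09 and −0.38 for Sdha, −0.06 for Sdhc and −0.09 for Sdhd. Against abnormal non-malignant samples, tumors differed on them by −0.16 and 0.09, −0.18 and −0.25, in the same order. Sdhb had no other probe set.

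Complex III hands electrons from ubiquinol to cytochrome c. Uqcr11, a small subunit, had 10.54, 11.09 and 10.78 in tumors, 10.12, 9.91 and 9.81 in abnormal non-malignant samples and 9.76, 9.50 and 9.98 in controls. The tumors were above all other arrays, and the other groups overlapped. Uqcr11 rose by 1.06 ± 0.19 in tumors against controls (SE, adjusted p = 0.00876) and by 0.85 against abnormal non-malignant samples (adjusted p = 0.0435). Uqcrq, another small subunit, had 10.60, 11.07 and 10.77 in tumors, 10.40, 10.33 and 10.11 in abnormal non-malignant samples and 10.04, 9.53 and 10.09 in controls. Its groups did not overlap, and it rose by 0.93 ± 0.20 in tumors against controls (adjusted p = 0.0150). Uqcr10, a small subunit, and Uqcrc1, a core protein of the matrix arm, rose by 0.57 and 0.53 (adjusted p = 0.0429 and 0.0499). Both lost the call in 8 of 9 fits with 1 array left out, and Uqcrq lost it without tumor 2 alone. Uqcrc2, the partner of Uqcrc1, showed another order: 10.70, 11.03 and 10.11 in tumors, 10.61, 11.14 and 10.95 in abnormal non-malignant samples and 9.94, 10.45 and 10.29 in controls. Tumor 3 lay within the controls, and the abnormal non-malignant arrays lay above all controls (0.67, adjusted p = 0.255). Uqcrb and Uqcrh differed by 0.03 and −0.05 between tumors and controls and were not called. Cyc1 and Uqcrfs1, which carry the heme and the iron-sulfur cluster of the electron path, had differences of 0.59 and 0.34 and were not called.

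**Figure D3:**
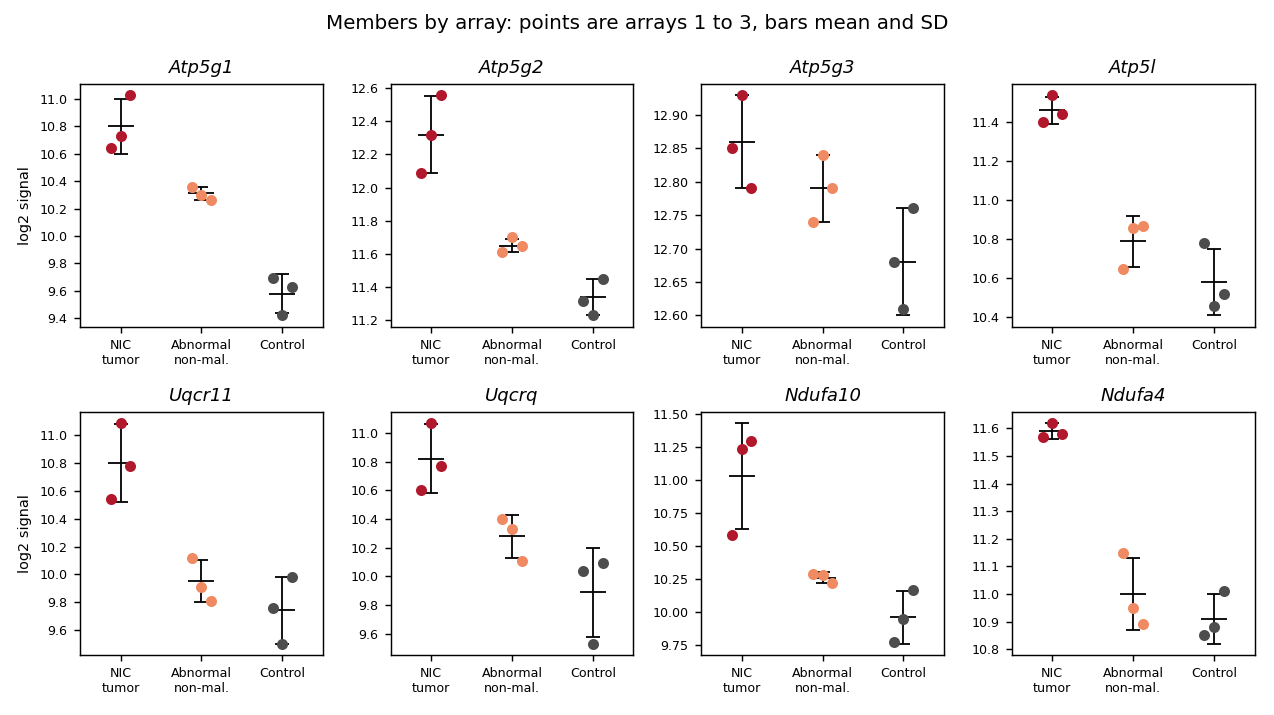
Log2 signal (y axis, with its own scale in each panel) of 8 members on each array, by group (x axis); points are the 3 arrays of a group, bars the mean and SD. All panels except that of Atp5g3 have the 3 tumor arrays above all others, and Atp5g3 spans only 12.61 to 12.93 over all 9 arrays.

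Cytochrome c carries electrons from complex III to complex IV and triggers apoptosis when released. Cycs had 11.82, 12.07 and 11.65 in tumors, 11.74, 12.02 and 11.89 in abnormal non-malignant samples and 11.40, 11.39 and 11.53 in controls. Tumors and abnormal non-malignant samples covered the same range, and both lay above all controls. The differences from controls were 0.41 for tumors (adjusted p = 0.0795) and 0.45 for abnormal non-malignant samples (adjusted p = 0.157), neither of them called. Both other Cycs probe sets above the 40th percentile gave larger differences, 0.77 and 0.93 for tumors and 0.62 and 0.58 for abnormal non-malignant samples against controls; they were not tested.

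Complex IV, cytochrome c oxidase, reduces oxygen. Cox4i2, Cox5b, Cox6c and Ndufa4 rose in tumors against controls, and the median of its 16 tested genes was 0.20. Ndufa4, long counted with complex I and now known as a complex IV subunit, had 11.57, 11.62 and 11.58 in tumors, 11.15, 10.95 and 10.89 in abnormal non-malignant samples and 10.85, 10.88 and 11.01 in controls. The tumor arrays lay close together and above all others, while the other groups overlapped. Ndufa4 rose by 0.68 ± 0.12 against controls (SE, adjusted p = 0.00871) and by 0.59 against abnormal non-malignant samples (adjusted p = 0.0352). Its paralog Ndufa4l2, a gene induced by hypoxia in other cells, had 6.48, 6.99 and 6.30 in tumors, 6.77, 6.53 and 6.42 in abnormal non-malignant samples and 6.14, 6.53 and 6.53 in controls, with all groups overlapping and no call. Cox5b, which binds zinc on the matrix side, averaged 12.97 ± 0.15 in tumors, 12.75 ± 0.19 in abnormal non-malignant samples and 12.44 ± 0.10 in controls (SD, n = 3 each), a rise of 0.53 in tumors against controls (adjusted p = 0.0217). Of its 4 other probe sets that passed, 3 gave differences of 0.40 to 0.54 and 1 gave −0.99, with tumor 3 at 5.31 on that probe set. Cox6c rose by 0.32 ± 0.09 (adjusted p = 0.0381), with no overlap of tumors (12.49 to 12.58), abnormal non-malignant samples (12.30 to 12.35) and controls (12.19 to 12.22). The call of Cox5b was lost without any 1 control, tumor 2 or tumor 3, and that of Cox6c in 7 of 9 fits with 1 array left out. Cox5a, the partner of Cox5b, had differences of 0.49 for tumors and 0.44 for abnormal non-malignant samples against controls, both without overlap and without a call.

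Several complex IV subunits have a general isoform and one known from particular tissues, such as lung, heart and skeletal muscle or testis. The general isoforms Cox4i1, Cox6a1, Cox6b1, Cox7a2 and Cox8a differed by 0.06, −0.02, 0.36, −0.13 and 0.20 between tumors and controls, with no call. Among the 7 restricted isoforms, Cox4i2 alone was called in any comparison. Cox4i2, known from lung and oxygen-sensing cells, had 6.33, 6.48 and 6.21 in tumors, 6.14, 6.21 and 6.08 in abnormal non-malignant samples and 5.83, 5.78 and 6.01 in controls. It rose by 0.47 ± 0.13 in tumors against controls (SE, adjusted p = 0.0402) and was called in 2 of 9 fits with 1 array left out. Its signal was not far above the 40th percentile, which lay at 5.14 to 5.30 on the arrays. Cox7a1, the heart and muscle isoform, had 5.57, 6.40 and 5.57 in tumors, 5.36, 5.08 and 5.10 in abnormal non-malignant samples and 5.29, 4.67 and 5.47 in controls, and was not called (0.70 for tumors against controls, adjusted p = 0.106). Cox6a2 spanned 6.42 to 7.26, Cox8b 5.41 to 6.28 and Cox8c 8.40 to 8.79 over the 9 arrays, with overlapping groups and no call.

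Cox6b2, the testis isoform, and Cox7c had the widest ranges over the 9 arrays among the members. Cox6b2 had 6.07, 8.16 and 6.52 in tumors, 5.90, 5.96 and 5.93 in abnormal non-malignant samples and 7.01, 6.98 and 7.19 in controls. The abnormal non-malignant arrays were below all others, tumor 2 above all others, and tumors 1 and 3 below the controls. The difference of abnormal non-malignant samples from controls, −1.13 ± 0.43 (SE), was not called in the fit of all 9 arrays (adjusted p = 0.260), which includes the tumors' SD of this gene. It was called lower, at the same difference, without tumor 2 and with only those groups fitted. Its general counterpart Cox6b1 had 12.30, 12.53 and 12.64 in tumors, 12.76, 12.08 and 11.97 in abnormal non-malignant samples and 12.27, 11.98 and 12.13 in controls, with abnormal non-malignant array 1 the highest of all. Cox7c, a small subunit, had 7.91, 6.31 and 4.96 in tumors, 7.06, 7.65 and 7.47 in abnormal non-malignant samples and 7.77, 8.78 and 7.37 in controls. Tumor 1 lay among the controls, and the difference of tumors from controls, −1.58 ± 0.64, was not called (adjusted p = 0.123), but was called lower without tumor 1. Cox7a2l spanned 11.01 to 11.79 without a call.

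**Figure D4:**
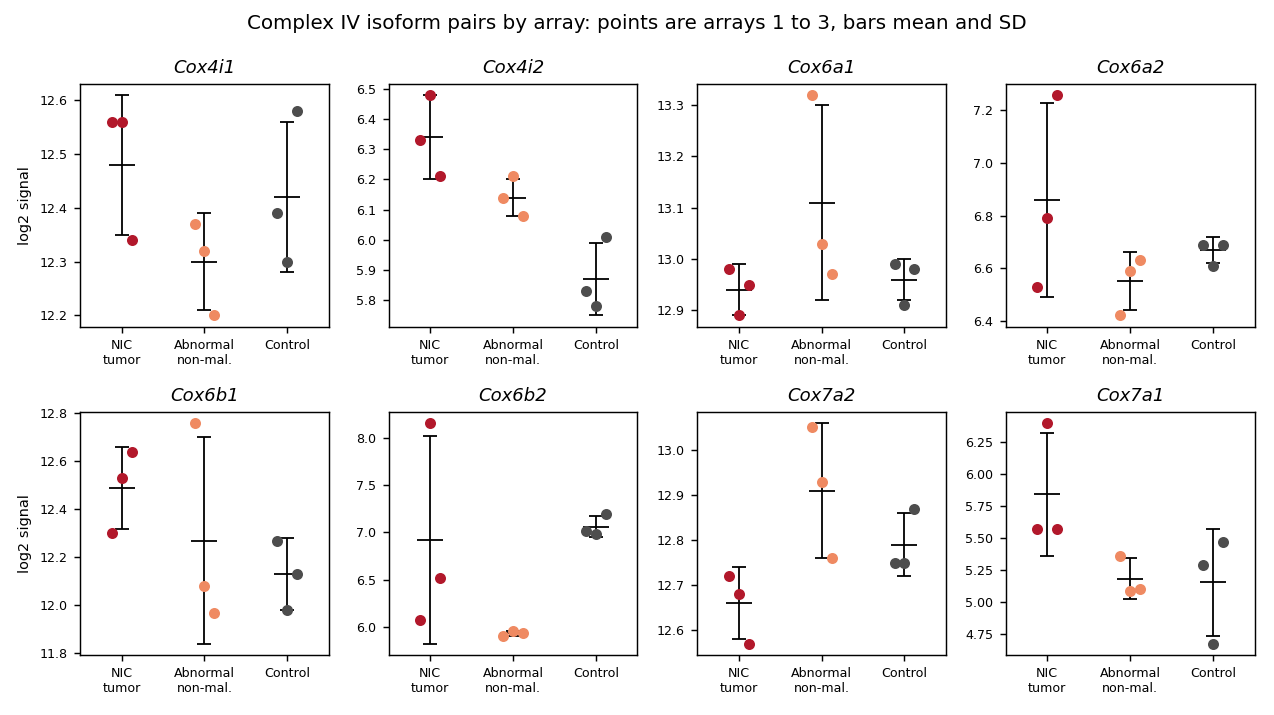
Log2 signal (y axis, with its own scale in each panel) of 4 pairs of complex IV isoforms, the general one left of the restricted one, on each array by group (x axis); points are the 3 arrays of a group, bars the mean and SD. Cox6b2 lies at 5.90 to 5.96 in abnormal non-malignant samples and reaches 8.16 on tumor array 2.

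Complex V makes ATP. Its membrane rotor is a ring of c-subunits, whose mature protein is encoded 3 times in the genome, by Atp5g1, Atp5g2 and Atp5g3. Atp5g1 had 10.64, 10.73 and 11.03 in tumors, 10.36, 10.30 and 10.26 in abnormal non-malignant samples and 9.69, 9.42 and 9.63 in controls. The 3 groups did not overlap. Atp5g1 rose by 1.22 ± 0.16 in tumors (SE, 2.33-fold, adjusted p = 0.00159) and by 0.73 ± 0.16 in abnormal non-malignant samples (adjusted p = 0.0325), both against controls. Between tumors and abnormal non-malignant samples it differed by 0.49, without a call (adjusted p = 0.0984). Atp5g2 had 12.09, 12.32 and 12.56 in tumors, 11.61, 11.70 and 11.65 in abnormal non-malignant samples and 11.32, 11.23 and 11.45 in controls, again without overlap. It rose by 0.99 ± 0.14 in tumors against controls (adjusted p = 0.00247) and by 0.67 against abnormal non-malignant samples (adjusted p = 0.0343). The difference of abnormal non-malignant samples from controls was 0.32 (adjusted p = 0.347). Atp5g3 had 12.85, 12.93 and 12.79 in tumors, 12.74, 12.84 and 12.79 in abnormal non-malignant samples and 12.68, 12.61 and 12.76 in controls. Its tumors lay just above its controls, by 0.18 ± 0.09 without a call (adjusted p = 0.202). Whether the 3 genes differ in their change was not tested.

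Atp5l and Atp5e, 2 further members of complex V, rose in tumors against controls. Atp5l, subunit g of the membrane part, had 11.40, 11.54 and 11.44 in tumors, 10.65, 10.86 and 10.87 in abnormal non-malignant samples and 10.78, 10.46 and 10.52 in controls. All tumors were above the other 6 arrays, and those overlapped. Atp5l rose by 0.87 ± 0.14 against controls (SE, adjusted p = 0.00477) and by 0.67 against abnormal non-malignant samples (adjusted p = 0.0358). Atp5e, the epsilon subunit of the rotating stalk, rose by 0.75 ± 0.21 against controls (adjusted p = 0.0383), with tumors at 10.81 to 11.13, abnormal non-malignant samples at 10.31 to 10.74 and controls at 9.79 to 10.51. It was called in 3 of 9 fits with 1 array left out, and Atp5l in all 9. The catalytic subunits Atp5a1 and Atp5b, at 12.74 to 12.86 and 12.76 to 13.14 in tumors and 12.43 to 12.72 and 12.51 to 12.68 in controls, differed by 0.24 and 0.36 without a call. The remaining 10 genes ran from −0.12 for Atp5h to 0.52 for Atp5d, none of them called.

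Called members were unequally spread over the range of signal. Of the 28 members with the lowest mean signal (5.39 to 10.58), 9 were called in tumors against controls, of the middle 27 (10.59 to 11.43) 10, and of the 27 with the highest (11.49 to 13.0) 3. Their median differences were 0.34, 0.36 and 0.15. The signal of a probe set depends on its probes as well as on the transcript, and no level is compared between genes here. Whether brightness on the array limits the differences measured at the top of the range was not tested.

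**Figure D5:**
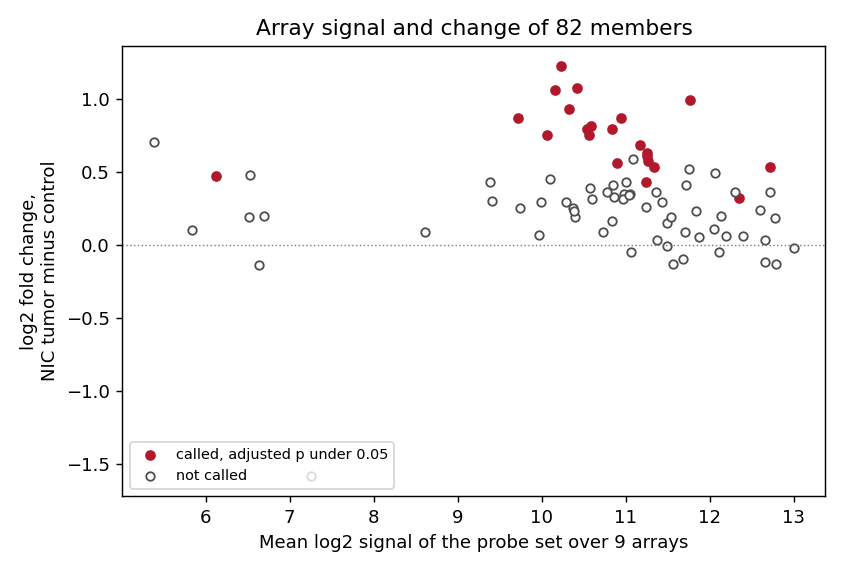
Log2 fold change between NIC tumors and controls (y axis) against the mean log2 signal of the probe set over 9 arrays (x axis) for the 82 tested members; filled points are the 22 called. Of the 27 members from 11.49 upward, 3 are filled.

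Other probe sets of the same genes served as a check within the array. Of the 22 genes called in tumors against controls, 13 had another probe set above the 40th percentile on at least 3 arrays. Of these 24 other probe sets, 20 differed in the same direction and 4 in the opposite one, belonging to Cox5b (−0.99), Uqcrq (−0.52), Uqcr10 (−0.13) and Sdhd (−0.09). Taking for each gene the probe set that varies most in place of the brightest turned the sign for 11 of 81 members, 10 of them to lower in tumors, among them Ndufs4, which was then called lower (−1.10, adjusted p = 0.0221). The probe sets used for 6 of the 22 have names ending in _s_at or _x_at, which marks probes that can match transcripts of other genes. These were those of Atp5e, Cox5b, Ndufa12, Ndufab1, Ndufv1 and Uqcrq.

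Genes that serve the complexes were counted beside the subunits; their calls were not examined with single arrays left out. For tumors against controls, the counts of each list stand beside 8.48% of all genes called higher, 7.19% called lower and a median of 0.06 over all genes. Assembly factors install cofactors and join the subunits. Of 44 tested, 17 rose and 2 fell in tumors against controls, with a median of 0.49, and 0 were called in either other comparison (8 higher and 0 lower at an unadjusted p under 0.05 for abnormal non-malignant samples against controls, 10 and 3 for tumors against abnormal non-malignant samples). At that unadjusted threshold, the shares over all genes were 9.36% and 3.92%, and 11.6% and 14.4%, in the same order. Ndufaf6 and Ndufaf4, assembly factors of complex I, rose by 1.38 and 1.06 (adjusted p = 0.0055 and 0.0111), and Lrpprc, which stabilizes mitochondrial mRNA, rose by 0.93 (adjusted p = 0.0117). Ndufaf6 had 7.04, 7.78 and 7.41 in tumors, 6.68, 6.68 and 6.62 in abnormal non-malignant samples and 6.41, 5.69 and 6.0 in controls, without overlap. Cox20 and Ttc19, which act on complexes IV and III, fell by 0.87 and 0.88 (adjusted p = 0.0312 and 0.0377).

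The tricarboxylic acid cycle supplies the chain with NADH and succinate. Of its 17 tested genes, pyruvate dehydrogenase included, 6 rose in tumors against controls and 0 fell. Suclg2, the GTP-forming subunit of succinyl-CoA ligase, had 9.96, 10.56 and 9.74 in tumors, 8.97, 9.19 and 9.18 in abnormal non-malignant samples and 8.16, 7.83 and 8.06 in controls. Its 3 groups did not overlap, and it was called in all 3 comparisons: by 2.07 in tumors against controls (adjusted p = 0.000821), by 1.10 in abnormal non-malignant samples against controls (adjusted p = 0.0263) and by 0.97 in tumors against abnormal non-malignant samples (adjusted p = 0.0445). Dlat, of pyruvate dehydrogenase, and Fh1, fumarase, rose by 0.80 and 0.81 in tumors against controls (adjusted p = 0.00997 and 0.0127).

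Mitochondrial import and membrane organisation had 9 of 17 tested genes higher and 0 lower in tumors against controls. Hspa9, the matrix chaperone of the import motor, rose by 1.57 (adjusted p = 0.00346) and also by 1.23 against abnormal non-malignant samples (adjusted p = 0.0269). Hspd1, the chaperonin of the matrix, rose by 1.24 and Tomm70a, an import receptor, by 0.92 (adjusted p = 0.00421 and 0.00926). Of 15 carriers and ubiquinone synthesis genes, 6 rose and 0 fell in tumors against controls. The phosphate carrier Slc25a3 and the ubiquinone synthesis gene Coq3 rose by 0.67 and 1.05 (adjusted p = 0.0156 and 0.0172), and the ADP/ATP carrier Slc25a4 by 0.81 (adjusted p = 0.0209).

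Of 16 tested regulators of mitochondrial gene expression, 2 rose and 3 fell in tumors against controls, with a median of 0.03. Over all genes, 8.48% were called higher and 7.19% lower. At an unadjusted p under 0.05, 2 were higher and 6 lower, against 17.4% and 14.8% of all genes. Whether these small counts differ from those shares was not tested. Myc, a transcription factor with many mitochondrial targets, had 8.81, 9.72 and 9.93 in tumors, 8.34, 8.27 and 8.10 in abnormal non-malignant samples and 7.43, 6.90 and 7.12 in controls, and rose by 2.34 in tumors against controls (adjusted p = 0.00133). Against abnormal non-malignant samples it rose by 1.25 (adjusted p = 0.0433). Pprc1, a coactivator of the PGC-1 family, rose by 1.01 (adjusted p = 0.0226). Nrf1, the factor whose core letters are marked in the promoters above, fell in tumors, with 8.15, 7.71 and 7.19 against 9.24, 9.01 and 8.59 in controls (−1.26, adjusted p = 0.0162). Gabpb1, the partner of the GABP DNA-binding subunit, fell by 0.82 and the mitochondrial DNA polymerase Polg by 0.60 (adjusted p = 0.0472 and 0.0421). The coactivator Ppargc1a lay under the 40th percentile on all 9 arrays.

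Markers of cell types were counted beside the subunit genes. Of the 9 T lineage markers, Cd247, Cd4, Cd8b1 and Thy1 fell in tumors against controls (differences of −2.09, −2.12, −1.70 and −1.29), and 0 rose; the mean log2 level of the list ranged from 10.91 to 12.04 on the tumor arrays, 12.39 to 12.42 on the abnormal non-malignant arrays and 12.47 to 12.78 on the controls. Of 4 tested B lineage markers, Cd79b fell in tumors against controls (−1.38, adjusted p = 0.0470). Cd79a, Pax5 and Ms4a1 differed by 0.32, 0.30 and −0.36 and were not called. Between abnormal non-malignant samples and controls, Cd79b differed by −1.49, without a call (adjusted p = 0.0967). No myeloid (6 tested), erythroid (3) or thymic stroma (4) marker was called in tumors against controls in limma, with 3, 2 and 0 of them higher at an unadjusted p under 0.05 (17.4% of all genes). The mean level of the myeloid list was 5.80 to 7.19 in tumors, 6.59 to 6.65 in abnormal non-malignant samples and 5.53 to 5.95 in controls. S100a8 had 4.96, 8.35 and 5.64 in tumors, 8.0 to 8.03 in abnormal non-malignant samples and 4.76 to 6.07 in controls. Between abnormal non-malignant samples and controls, S100a8 and S100a9 differed by 2.76 and 2.61 without a call. The other tested myeloid markers, Csf1r, Elane, Lyz2 and Mpo, differed by 0.09, 0.05, 0.07 and 0.34. The erythroid list had 6.24 to 7.35 in tumors, 6.44 to 6.51 in abnormal non-malignant samples and 5.87 to 6.04 in controls, and Hba-a1 lay under the 40th percentile on all arrays. Alas2, Epor and Klf1 differed from controls by 1.59, 0.53 and 0.77 in tumors and by 1.36, 0.29 and 0.35 in abnormal non-malignant samples, without a call. For these 3 genes all abnormal non-malignant arrays lay above all controls (17% of all genes). Among 5 tested muscle and heart markers, Actn2 alone was called higher in abnormal non-malignant samples than in controls (1.06, adjusted p = 0.0163). Over all genes, 2.87% were called higher. Ckm, Cox6a2, Cox7a1 and Cox8b differed by −0.05, −0.12, 0.04 and 0.02 in that comparison. Myh6 and Tnnt2 lay under the percentile on all arrays. The part of these markers in the differences of the subunit genes was not tested.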

How the data were processed

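RNA of 9 samples, 3 per group, was measured on Affymetrix arrays. The authors deposited normalized log2 values for 45101 probe sets; background correction, normalization method and summarization are not given in the sources used here. The log base was inferred from their range, 2.68 to 14.57. Probe sets were named through the platform annotation; 34945 carry 1 symbol, and only these were used. Medians of passing probe sets differed by less than 0.3 between arrays, so no normalization was added. Arrays have no read depth, so their number limits the precision.

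The main fit had 1 mean per group over all 9 arrays in limma 3.58.1 (R 4.3.3), with lmFit and eBayes with a trend (residual degrees of freedom 6, prior 3.6). It was tested on simulated data. Exact permutation of 3 against 3 arrays has a smallest p of 0.1 and was not used. Tables were handled in Python 3.11.15 with pandas 2.3.3, and figures drawn with matplotlib 3.10.9. Motifs were searched by exact match.

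Named by rule are the 2 members with the smallest adjusted p per complex and comparison, and isoform pairs. So are members whose probe sets disagree and members that are no subunit. Some of these, such as Ndufb8, Ndufb9 and Ndufv1, are given without their value on every array. Other lists get the 3 genes with the smallest adjusted p in tumors against controls, and called ones otherwise. Further genes, such as Cox7c, Ndufs1 and S100a8, were named with values in view. The members and lists were chosen with earlier results of these data known. Alternatives were other scalings, filters, probe set rules, variance models, groups, thresholds, the replicate block and each array left out. Subunits encoded in mitochondrial DNA were not analysed here.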

Additional observations from a re-analysis of the deposited data

How the results depend on the processing

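Leaving out 1 array gave 7 to 26 called members for NIC tumors against controls, 0 to 2 for abnormal non-malignant samples against controls and 0 to 12 for tumors against abnormal non-malignant samples, with medians of 0.28 to 0.36, 0.12 to 0.20 and 0.14 to 0.20. Over all genes, these fits called 926 to 4121, 205 to 708 and 53 to 3400. In that order of comparisons, the counts were 40, 9 and 38 of the 82 members with array weights (1, 1 and 2 of them lower). That setting called 4885, 2421 and 5700 of all 13296 genes. The counts were 13, 0 and 0 with abnormal non-malignant arrays 2 and 3 averaged (1472, 208 and 55 of all genes). With only the 2 groups compared they were 8, 2 and 0 (841, 1119 and 110 of all genes). At an adjusted p under 0.01 they were 5, 0 and 0 (584, 233 and 83 of all genes). Quantile normalization gave 21, 0 and 7 (2278, 444 and 587 of all genes), and median scaling 26, 0 and 6 (2249, 491 and 651). The mean of all probe sets per gene gave 18, 0 and 3 (1952, 463 and 467). An adjusted p under 0.1 gave 31, 1 and 10 (3138, 680 and 1440). In the abnormal non-malignant comparison, the settings with 0 calls left 3 to 11 members with an unadjusted p under 0.05 in limma, and in that of tumors with abnormal non-malignant samples 13 to 21. The median moved to 0.24 for tumors against controls under the mean of all probe sets and to 0.39 under median scaling, which gave 0.24 for tumors against abnormal non-malignant samples. Median scaling and quantile normalization set the median of all genes at 0.14 and 0.11 for tumors against controls, against 0.06 as deposited. With the probe set of largest spread in place of the brightest, 11 of 81 members changed sign between tumors and controls, among them Cox5b (−0.99), Uqcr10 (−0.13), Ndufs4 (−1.10, called lower), Atp5c1 (−0.46), Ndufb8 (−0.43) and Sdha (−0.38). The median was then 0.32, and 15 members, 1 of them lower, and 1976 of all genes were called. The cause of these shifts was not tested. For the differences of the members named by the rule under all settings, 2242 kept their side of the threshold. These include differences that changed sign without a call under either setting, such as that of Ndufb8. Of the others, 199 kept the direction and lost the call, 53 kept the direction and gained a call, and 2 changed direction with a call under either setting.

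With the replicate number as a block, 15, 0 and 0 members were called (18 and 9 had an unadjusted p under 0.05 in the comparisons with 0, tumors against abnormal non-malignant samples and abnormal non-malignant samples against controls). Over all genes, 1915, 399 and 287 were called with the block, in the order of comparisons used above. The labels do not say that numbers pair samples, the correlations of same-numbered arrays lay between −0.05 and 0.22, and not every array correlated best with its own number.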

Other observations

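Probe sets with several symbols were left out of the members, and 10 of them name a subunit gene. Those shared by Ndufb4, Ndufb4b and Ndufb4c had 9.79 to 10.42 in tumors, 9.66 to 10.13 in abnormal non-malignant samples and 9.38 to 10.11 in controls, whereas the probe set with Ndufb4 as its single symbol lay at 4.08 to 4.29 in tumors, 3.86 to 4.20 in abnormal non-malignant samples and 4.10 to 4.33 in controls and did not pass. The probe set shared by Ndufab1 and its pseudogene Ndufab1-ps had 9.89, 10.36 and 10.45 in tumors, 10.08, 10.09 and 9.99 in abnormal non-malignant samples and 9.38, 9.10 and 9.54 in controls, with no overlap between controls and either other group. That of Ndufs6 and Ndufs6b averaged 10.74 ± 0.30 in tumors, 10.47 ± 0.19 in abnormal non-malignant samples and 10.30 ± 0.18 in controls (SD, n = 3 each), overlapping. None of these was tested.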
